A study of Mus musculus with 677 samples.

Results

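Genes of protein folding in the endoplasmic reticulum (ER) and of the unfolded protein response were followed through single cells of the mouse intestinal epithelium. The 33 genes were chosen by name, with earlier results of these data known, from the 23420 genes of the expression table. All 33 were found there. They comprised 15 chaperones and folding enzymes, 7 stress sensors and transcription factors, 8 genes of ER-associated degradation and translocation, and 3 target genes of the transcription factor ATF4. The labels of all 677 cells, of the C57BL/6 strain, name both SMART-Seq2, which reads whole transcripts of single cells, and a 10X Chromium preparation. The table was taken as SMART-Seq2 because it holds TPM for cells numbered singly, which no label states. It compared wild type (WT) animals with knockouts (KO) of the autophagy-related gene Atg16l2. The cells came from 4 animals, M1 and M2 of each genotype, and each animal was spread over 2 runs. The M code in the library titles was read as the animal. Neither the age of the animals nor the design of the knockout allele is given in the sources used here.

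In the ER, newly made secreted and membrane proteins fold with the help of chaperones such as Hspa5 (BiP) and of disulfide isomerases. When unfolded protein accumulates, the sensors Ern1 (IRE1 alpha), Eif2ak3 (PERK) and Atf6 respond. IRE1 splices the mRNA of Xbp1, PERK phosphorylates the initiation factor eIF2 alpha and favours translation of ATF4, and ATF6 is cut to release a transcription factor. Ern2 (IRE1 beta) is a second IRE1 known from mucus-secreting epithelia. Goblet cells make mucins and Paneth cells make antimicrobial peptides, whereas enterocytes absorb nutrients.

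Each cell carried 1 of 9 type names in its title, and how the authors gave those names is not stated in the sources used here. Where the names came from the same values, the differences between types given here describe the named types and are no independent test. There were 70 Goblet, 22 Paneth, 32 Enteroendocrine and 7 Tuft cells. Among the others were 58 Enterocyte, 75 Enterocyte.prog.late and 96 Stem cells, 31 to 42 cells per animal of Enterocyte.prog.early and 37 to 48 of TA. The 3 types whose names begin with Enterocyte are called the absorptive types. Values are TPM, length-normalized shares of the transcripts of each cell, averaged over the cells of a type in each animal, and read depth is unknown. Atg16l2 was above 0 in 20 cells of WT M1, 18 of WT M2 and 0 of KO M1 and of KO M2. Counts of 0 leave room for shares of up to 1.74% and 1.76% in the KO animals. Goblet markers made up 10.7% to 18.7% of TPM in Goblet cells of the 4 animals. Paneth markers made up 41.7%, 55.4% and 57.3% of TPM in Paneth cells of WT M1, WT M2 and KO M1 but 18.4% in the 3 Paneth cells of KO M2. In the Goblet cells of KO M1, Paneth markers reached 11.1% of TPM, against 0.374% to 2.18% in the other animals.

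Several of these genes are known targets of ATF6 and XBP1 through the ER stress response element (ERSE). Promoters of 300 bases, from 250 before to 50 after the gene start in RefSeq (GRCm38.p6), were found for 28 of the 33 genes. Those of Manf, Hyou1, Ern2, Atf6 and Derl1 were not used here. The element, CCAAT and CCACG with 9 bases between them, searched on both strands, was present in 9 of the 28 and in 0.119% of all 32851 promoters. The 9 genes were Hspa5, Hsp90b1, Calr, Canx, Pdia6, Creld2, Dnajc3, Syvn1 and Derl3. The second form, ATTGG and CCACG with 1 base between them, was present for Dnajb11 and Herpud1 and in 0.0365% of all promoters. The 4 sequences that follow are the bases before the start for genes that were high in Goblet cells, all on the + strand, with the element in capitals. They lie at chr2:34771840-34772089 (Hspa5), chr12:17266339-17266588 (Pdia6), chr15:88819396-88819645 (Creld2) and chr8:94386179-94386428 (Herpud1).
Hspa5: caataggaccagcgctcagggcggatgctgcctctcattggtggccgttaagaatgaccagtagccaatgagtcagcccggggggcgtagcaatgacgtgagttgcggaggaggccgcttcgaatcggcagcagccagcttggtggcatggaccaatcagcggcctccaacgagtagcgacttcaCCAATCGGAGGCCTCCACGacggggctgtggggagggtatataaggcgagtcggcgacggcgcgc
Pdia6: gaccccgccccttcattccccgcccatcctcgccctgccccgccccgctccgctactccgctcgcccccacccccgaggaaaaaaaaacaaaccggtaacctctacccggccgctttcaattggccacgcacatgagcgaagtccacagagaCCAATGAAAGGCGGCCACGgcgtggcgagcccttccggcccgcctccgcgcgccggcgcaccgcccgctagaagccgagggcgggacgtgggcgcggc
Creld2: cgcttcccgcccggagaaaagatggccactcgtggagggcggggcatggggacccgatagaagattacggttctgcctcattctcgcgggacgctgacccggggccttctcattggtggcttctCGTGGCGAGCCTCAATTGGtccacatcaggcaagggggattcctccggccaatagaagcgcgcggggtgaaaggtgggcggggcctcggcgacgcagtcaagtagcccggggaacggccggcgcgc
Herpud1: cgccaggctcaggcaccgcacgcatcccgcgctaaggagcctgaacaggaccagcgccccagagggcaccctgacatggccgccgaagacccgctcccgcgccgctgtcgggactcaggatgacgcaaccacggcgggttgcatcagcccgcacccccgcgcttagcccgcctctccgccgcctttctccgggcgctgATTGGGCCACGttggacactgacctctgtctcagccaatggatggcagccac
The capitals in Creld2 are the element read on the opposite strand, and those in Herpud1 are the second form. A match describes these letters and is not a measured binding site. The genes printed were picked for their level in Goblet cells. Of the other genes with the element, Canx was lower in Goblet cells than in the absorptive types. Syvn1, which also has the element, did not pass the test of that difference given below. Whether the element goes with the level in Goblet cells was not tested.

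Across types the genes differed widely in level. Most chaperones were highest in Goblet cells, P4hb was highest in Enterocytes, and Derl3 and Chac1 were near 0 in the absorptive types. Atf6 had its highest mean in Enteroendocrine cells, where it was above 0 in 20 of 32 cells, against 65 of 70 Goblet cells. Its median over Enteroendocrine cells was 9.95 TPM in WT and 7.495 in KO, with the highest cell at 501.76. Over Goblet cells the medians were 14.84 and 5.4.

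**Figure D1:**
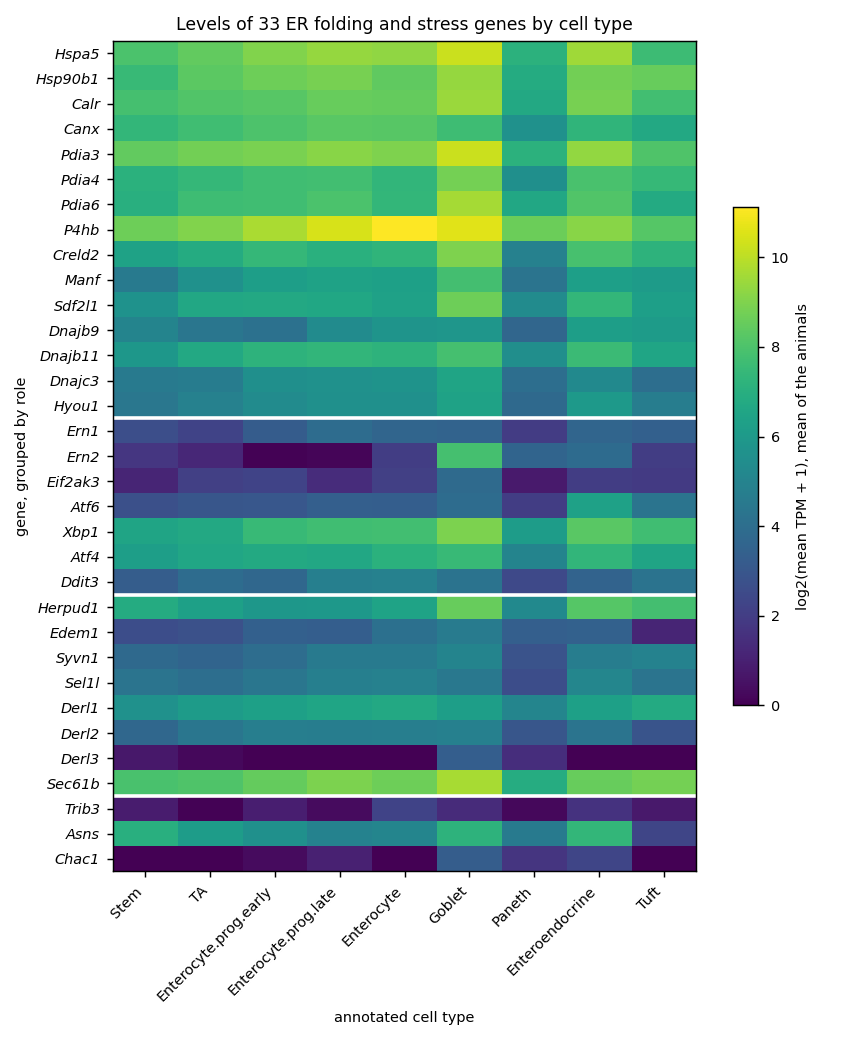
Mean level of the 33 genes (vertical axis, grouped by role with white lines between roles) in 9 cell types (horizontal axis), as log2(mean TPM + 1) averaged over the animals. Goblet cells held the highest levels of most chaperones, and Ern2 stood out there.

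Most chaperones and folding enzymes were higher in Goblet cells than in the absorptive types. Of 27 genes of the set that passed the filter on low values, 20 were higher in Goblet cells, 1 was lower and 6 did not pass the test (limma, Benjamini-Hochberg adjusted p under 0.05). Of all 6714 genes tested, 48.4% were called, 15.8% higher and 32.5% lower. The median log2 difference was 0.96 over the 27 genes and -0.19 over all genes tested. Ern2 and Edem1 passed the filter only through their level in Goblet cells, as did 2.13% of all genes, so their higher values there were favoured by the filter. Of the other 25 genes, 18 were higher and 1 lower. By role, 13 of 15 chaperones were higher and 1 lower. Of 4 sensors and transcription factors 3 were higher, Ern2 among them. Of 7 degradation and translocation genes 3 were higher, Edem1 among them, and Asns was higher. These counts by role thus include both genes that the filter favoured. Deposited TPM are shares of a total, so the split of all genes moved with the scaling: 1064 were higher and 2184 lower as deposited, and 1432 and 1709 after each profile was centred on its median gene. With that centring, 22 of the 27 genes were higher and 1 lower, with Ern2 and Edem1 still among the 27.

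Profiles rested on unequal numbers of cells. On simulated data the test, which gives every profile the same weight, made more false calls than its threshold states for some types, Goblet among them. In that simulation, cells standing for Goblet and the absorptive types were drawn from a shared pool of Enterocyte.prog.early cells of all animals. The simulation held no spread between animals, and the part of few cells in the false calls was not tested apart. Weighting profiles by their number of cells lowered the false calls for the simulated Goblet cells without bringing them to the threshold. With those weights, 20 of the 27 genes were again higher and 1 lower, and 45.6% of all genes were called. Ern2 and Edem1, which the filter favoured, are among the 27.

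Hspa5, the central ER chaperone, stood at 1354 TPM in Goblet cells of WT M1, 1236 of WT M2, 893 of KO M1 and 1353 of KO M2. In the absorptive types it stood at 631, 641, 550 and 576 TPM in the same order. The groups did not overlap, with a log2 difference of 1.01 ± 0.14 (SE; limma, Benjamini-Hochberg adjusted p = 1.2e-05). Pdia6, a disulfide isomerase, was at 681.2 to 891.9 TPM in Goblet cells of the 4 animals and at 195.4 to 231.2 in the absorptive types, a log2 difference of 1.95 ± 0.11. Sdf2l1, a partner of ER-resident DnaJ proteins, was at 286.3 to 464.6 against 83.24 to 102.7 TPM, a log2 difference of 2.09 ± 0.23. All 4 animals showed the higher value in Goblet cells for each of these genes.

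Creld2, an ER stress-inducible protein, was at 618, 564, 260.5 and 544 TPM in Goblet cells of WT M1 and M2 and KO M1 and M2, against 138.8 to 165.3 in the absorptive types. KO M1 was the lowest of the 4, and it was also the animal whose Goblet cells held 11.1% Paneth markers. The part of those transcripts in its lower value was not tested. Over the 4 animals together, the log2 difference was 1.65 ± 0.20 with all cells. It was 1.73 ± 0.19 without 9 cells of other types rich in Paneth markers, of which 5 were Goblet cells of KO M1. Manf, a secreted ER stress protein, was at 148.9 to 292.2 against 68.34 to 91.73 TPM.

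Canx, the membrane-bound lectin chaperone calnexin, went the other way. It was at 222.2, 180.9, 214.4 and 187.2 TPM in Goblet cells of WT M1 and M2 and KO M1 and M2 and at 253.9 to 317.1 in the absorptive types, with no overlap and a log2 difference of -0.52 ± 0.10. P4hb, the disulfide isomerase PDI, was at 1399 to 1679 TPM in Goblet cells and 1373 to 1547 in the absorptive types, and did not pass the test (log2 difference 0.19 ± 0.08, limma adjusted p = 0.0626). Against Enterocyte cells alone, where P4hb stood at 2236 ± 171.8 TPM (SD, n = 4 animals), its log2 difference was -0.52.

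Among the sensors, the IRE1 pair differed from each other. Ern2 was at 207.98, 224.8, 203.1 and 275.8 TPM in Goblet cells of WT M1 and M2 and KO M1 and M2 and at 0.00758 to 2.99 in the absorptive types, a log2 difference of 7.27 ± 0.44. It was above 0 in 70 of 70 Goblet cells and in 4 of 58 Enterocyte cells, and without Goblet cells it would not have been tested. Ern1 was at 9.68 to 11.5 TPM in Goblet cells and 10.1 to 14.9 in the absorptive types, and these overlapped. Ern1 did not pass the filter on low values, and without that filter its log2 difference was -0.03 ± 0.19.

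Eif2ak3 and Atf6 were low and did not pass the filter. Without it, both were higher in Goblet cells, with log2 differences of 1.99 ± 0.40 for Eif2ak3 and 0.68 ± 0.20 for Atf6 (limma adjusted p = 0.00269 and 0.0305). In that fit 19.8% of all 20583 genes were called, 8.22% higher and 11.6% lower. Eif2ak3 stood at 8.51 to 18.6 TPM in Goblet cells against 2.02 to 3.7 in the absorptive types. Xbp1, the substrate of IRE1, was at 415.9 to 539.2 TPM against 184.8 to 239.04, a log2 difference of 1.27 ± 0.14. The table gives 1 value per gene, so spliced and unspliced Xbp1 cannot be told apart. Ddit3 (CHOP), a pro-apoptotic factor, was at 11.5 to 21.4 against 10.4 to 34.2 TPM and did not pass the test.

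The degradation genes were mixed. Herpud1, a membrane component of the degradation machinery, was at 377.2, 408.4, 311.1 and 404.4 TPM in Goblet cells of WT M1 and M2 and KO M1 and M2 and at 62.8 to 72 in the absorptive types, a log2 difference of 2.48 ± 0.17. In runs 1 and 2, as means over animals, Herpud1 stood at 293.7 and 259.1 TPM in Enteroendocrine cells. Goblet cells stood at 433.8 and 287.7 in the same runs, and Stem cells at 146.7 and 95.2. Edem1, which directs misfolded glycoproteins to degradation, differed by 1.04 ± 0.28 on the log2 scale, but passed the filter only through Goblet cells. Sec61b, a subunit of the translocation channel, was at 537.4 to 1087 against 325.5 to 485.2 TPM. Syvn1 and Sel1l, the core of the HRD1 ubiquitin ligase, and Derl1 and Derl2 did not pass the test, with log2 differences of 0.54, -0.28, -0.28 and 0.09. Derl3 was above 0 in 11 of 70 Goblet cells, 7 of 22 Paneth cells. It was above 0 in 0 of 58 cells named Enterocyte, an upper limit of 5.17%.

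Of the ATF4 targets, Asns, asparagine synthetase, was at 123.1 to 173.2 TPM in Goblet cells and 27.1 to 42.3 in the absorptive types, a log2 difference of 2.05 ± 0.18. Chac1, which degrades glutathione, was above 0 in 9 of 70 Goblet cells and 0 of 58 Enterocyte cells, with the same upper limit of 5.17%. Trib3, a pseudokinase, was above 0 in 4 of 70 and 4 of 58. The letters TGATGNAA of the ATF4 response element, searched on both strands, were present in the promoters of Asns, Chac1, Trib3 and Herpud1 and in 3.97% of all promoters. The letters TGACGTGG, the core of an element bound by XBP1, were in 0 of the 28 promoters and in 0.676% of all.

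**Figure D2:**
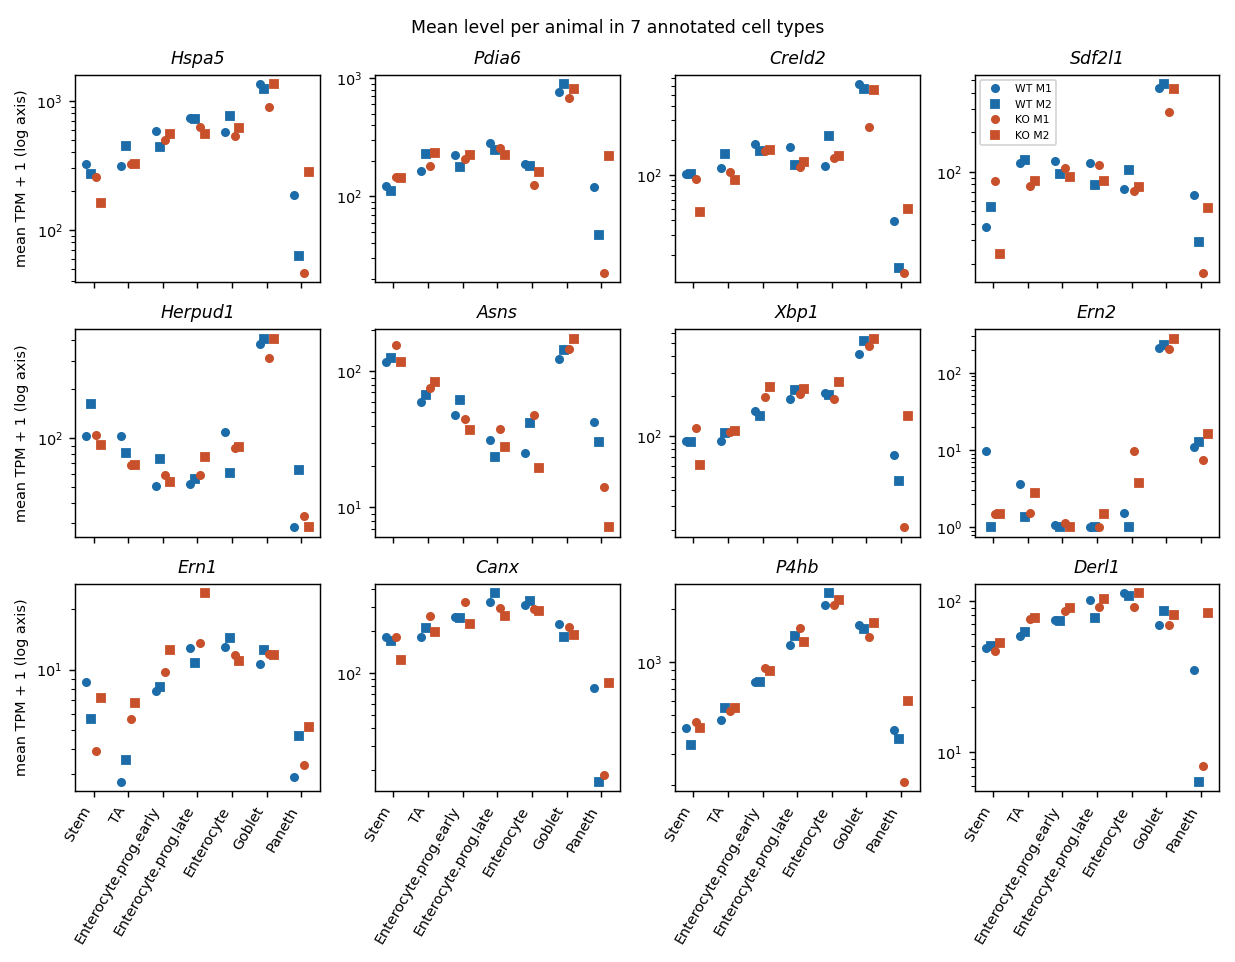
Mean TPM + 1 on a log axis (vertical) in 7 cell types (horizontal) for 12 genes, with 1 point per animal, WT in blue and KO in orange, M1 as circles and M2 as squares. Ern2 stood at 203.1 to 275.8 TPM in Goblet cells of all 4 animals, while Ern1 overlapped between Goblet and absorptive types.

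The same comparison was made for other genes of the pathway, in lists drawn up with earlier results of these data known. Their counts are therefore no independent support. Among all 6714 genes tested, 15.8% were higher in Goblet cells and 32.5% lower. How many genes of these lists passed the filter only through Goblet cells was not counted. Of 29 tested genes of ER translocation and glycosylation, 27 were higher in Goblet cells and 0 lower, with a median log2 difference of 0.85. Of 20 other oxidoreductases, lectins and proline isomerases, 15 were higher and 0 lower. The largest difference in this list was that of Agr2, an isomerase of mucin folding that is also on the list of Goblet markers used here, at 11.40 on the log2 scale. Of 17 other degradation genes, 5 were higher and 2 lower, with a median of 0.01. Of 16 other stress regulators, 4 were higher, among them Creb3l1 at 4.51, and 4 were lower, among them Creb3l3 at -3.92. Of 19 further ATF4 and amino acid response targets, 12 were higher, among them Phgdh at 3.58, and 4 lower, among them Cth at -3.20.

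In Paneth cells the deposited values were lower almost throughout. The 45 secretory product genes held 54.6% of TPM in Paneth cells, 18.5% in Goblet cells and 0.24% to 2.28% in the other types. Of the 27 genes, 25 were lower than in the absorptive types and 1, Ern2, was higher, while 94.4% of all 6393 genes tested were called with 1.16% higher and 93.3% lower. The median log2 difference was -2.13 for the 27 genes and -2.41 for all genes, so the count of lower genes is close to the background. Ern2 and Edem1 again passed the filter only through Goblet and Paneth cells, and the other 25 genes were all lower. The size of the difference moved with the run. In run 1 the medians were -1.85 for the genes of the set and -2.16 for all genes, and in run 2 they were -3.47 and -3.54. Hspa5 stood at 195.8 TPM in 17 Paneth cells of run 1 and at 31.03 TPM in 5 of run 2, as means over 4 and 3 animals. The secretory product genes held 51.7% of TPM in the first and 64.4% in the second, and their part in the difference between runs was not tested.

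Relative to the median gene, 6 of the 27 genes were higher in Paneth cells and 1 was lower, against 13.1% higher and 22.1% lower among all genes. Of these 6, Ern2 and Edem1 passed the filter only through Goblet and Paneth cells, as did 1.36% of all genes. They differed by 5.26 ± 0.56 and 1.504 ± 0.34 on the log2 scale. Asns differed by 1.41 ± 0.39 and Herpud1 by 1.41 ± 0.45 (limma, Benjamini-Hochberg adjusted). Sdf2l1 and Pdia6 were higher by 0.95 ± 0.25 and 0.82 ± 0.16. Canx was lower, at -0.64 ± 0.13, as it was in Goblet cells. Hspa5, at -0.12 ± 0.17, did not pass the test. This centring was chosen after seeing the data, and after removal of the 45 secretory genes instead, 1 gene was higher and 21 lower. Against Goblet cells, all 27 genes were lower in Paneth cells as deposited (87.8% of all genes called, 0.407% higher and 87.4% lower) and 0 were higher and 14 lower after centring (8.29% of all genes higher and 9.35% lower). Paneth profiles rested on 6, 9, 4 and 3 cells in WT M1 and M2 and KO M1 and M2.

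**Figure D3:**
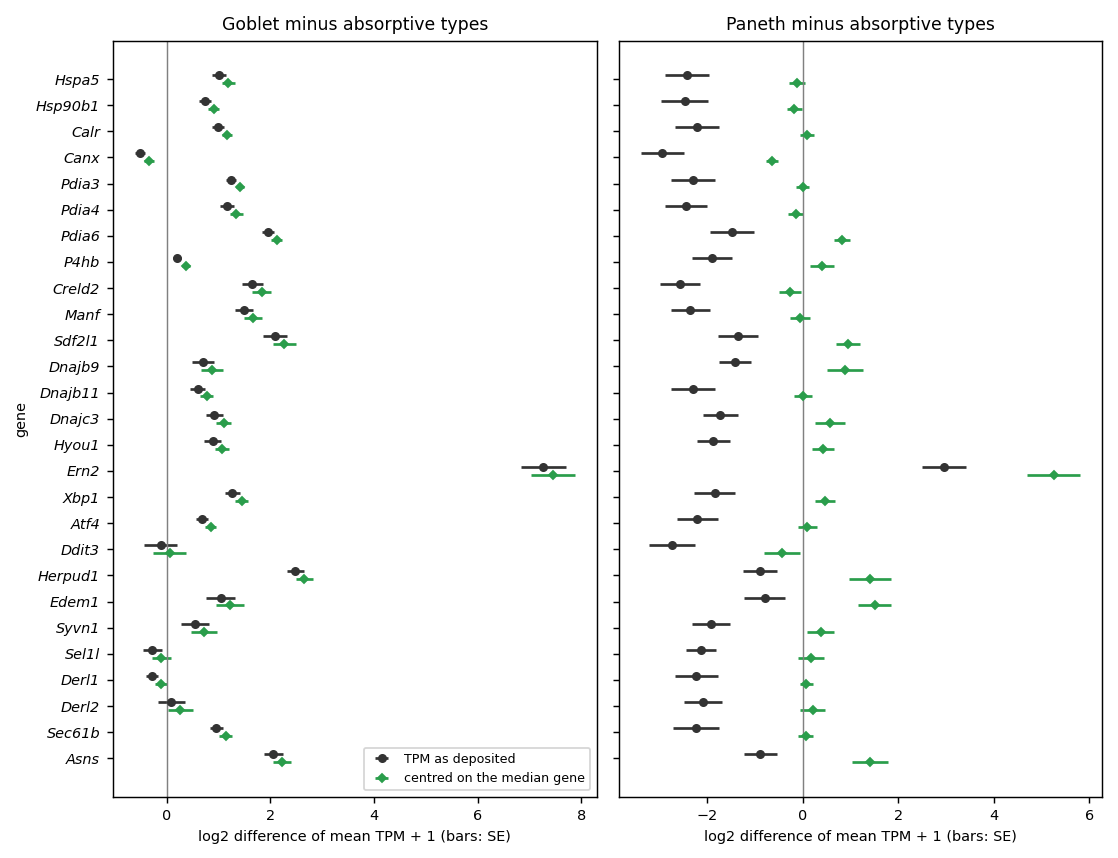
Log2 difference from the absorptive types (horizontal, bars are standard errors) for 27 genes in Goblet (left) and Paneth cells (right), as deposited (black) and centred on the median gene (green). Centring changed the Goblet values little and moved the Paneth values from mostly below 0 to around 0.

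Between genotypes, no gene of the set passed the test. In the average of 6 types (Stem, TA, Goblet and the absorptive types), 0 of the 27 genes and 0 of all 6714 genes (0% called) differed between KO and WT (limma, Benjamini-Hochberg adjusted), while 4 of the 27 and 510 of all genes had an unadjusted p under 0.05. The 4 genes were Creld2 (log2 difference -0.37 ± 0.13), Manf (-0.38 ± 0.14), Ddit3 (-0.60 ± 0.22) and Dnajb9 (0.47 ± 0.18), with adjusted p of 0.553 to 0.596. With 2 animals per genotype, these p-values do not show that the genotypes were alike.

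Dnajb9, an ER DnaJ protein that holds IRE1 in check, was at 23.8 and 26.7 TPM in WT M1 and WT M2 and at 59.5 and 52.7 in KO M1 and KO M2 in run 1. In run 2 it was at 26.2 and 37.8 in WT and 40.7 and 31.4 in KO. The genotypes were apart in run 1 and overlapped in run 2, with log2 differences of 1.11 and -0.03. Hspa5 was at 627 and 617 TPM in WT and 630 and 660 in KO in run 1, and at 680 and 672 in WT and 443 and 553 in KO in run 2. Both KO values were above both WT values in run 1, by little, and below them in run 2, with log2 differences of 0.07 and -0.49. Creld2 was at 225.5 and 230 TPM in WT and 177.1 and 182.2 in KO in run 1, and at 217.6 and 198.6 in WT and 126.04 and 210.7 in KO in run 2. On mean TPM its genotypes were apart in run 1 and overlapped in run 2. On log2 values averaged over types, run 2 held 7.385 and 7.386 in WT and 6.944 and 7.073 in KO, without overlap. The log2 differences, from log2 values averaged over types, were -0.28 and -0.38.

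**Figure D4:**
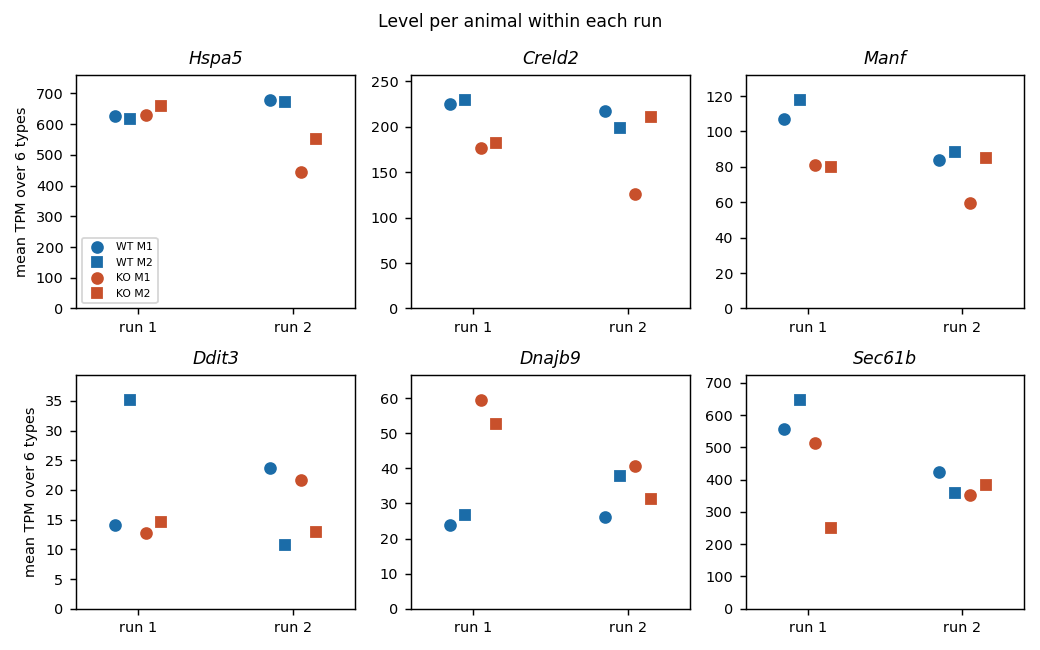
Mean TPM over 6 cell types (vertical) for 6 genes within each run (horizontal), with 1 point per animal, WT in blue and KO in orange. Dnajb9 was apart between genotypes in run 1 and overlapped in run 2, and Hspa5 was slightly higher in KO in run 1 and lower in run 2.

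Within single types, 0 of the 27 genes passed the test in any of the 6 types. Of all genes, 0.0596% were called in Stem, 0.626% in Enterocyte (0.477% higher and 0.149% lower) and 0% in each of the other 4 types. The 42 genes called in Enterocyte fell to 3 when profiles were weighted by cell number. In Goblet cells Dnajb9 was at 28.7 and 43.9 TPM in WT and 74.3 and 80.6 in KO, a log2 difference of 1.10 ± 0.39 (limma adjusted p = 0.226). Sec61b was at 972 and 1087 in WT and 702 and 537 in KO. The difference was -0.74 ± 0.29 (limma adjusted p = 0.288). Without KO M1 it was -0.93, which rests on KO M2 as the 1 KO animal. Neither run alone turned the direction of Sec61b in Goblet cells. On log2 values averaged over the 6 types, run 2 alone turned it by little. There WT M1 and WT M2 were at 8.488 and 8.3246, and KO M1 and KO M2 at 8.3915 and 8.4251, with overlap. In run 1, KO M2 was at 7.8327, the lowest value of any animal and run. Ern2 in Enterocyte cells was at 0.552 and 0 TPM in WT and 8.85 and 2.71 in KO, and it passed the test in run 1 alone (limma adjusted p = 0.0173), where 0.379% of all genes were called. In both runs together it was above 0 in 1 of 29 WT and 3 of 29 KO Enterocyte cells, the highest at 95.03 TPM.

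The difference between Goblet and absorptive types was itself compared between genotypes, and 0 of the 27 genes and 0 of all genes (0% called) passed the test, with 621 of all genes at an unadjusted p under 0.05 and 0 of the 27. Chac1, which is below the filter and was singled out after its values were seen, was at 9.09 and 22.7 TPM in Goblet cells of WT M1 and WT M2 and at 2.14 and 0.977 in KO M1 and KO M2. Its change in difference was -3.06 ± 0.62 without the filter (limma adjusted p = 0.159).

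**Figure D5:**
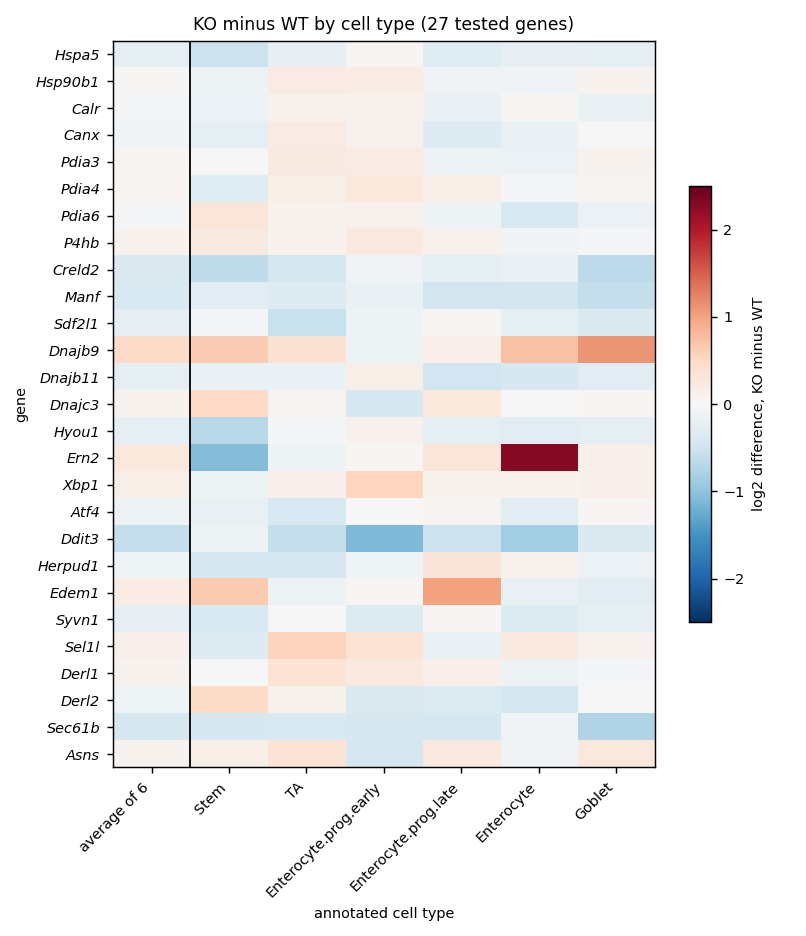
Log2 difference between KO and WT (colour, red higher in KO and blue lower) for 27 genes (vertical) in the average of 6 types and in each type (horizontal). None passed the test, and the strongest colour, Ern2 in Enterocyte, rests on levels under 10 TPM.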

How the data were processed

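The authors deposited 1 table of TPM for 677 single-cell libraries, per the file headers. Bowtie, TopHat and RSEM are named in the submitters' processing notes, without versions. The genome build and counting options are not given in the sources used here. TPM summed to between 999999.17 and 1000000.78 per cell, so they keep no depth.

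TPM were averaged per animal and type, transformed as log2(mean TPM + 1) and tested with limma 3.58.1 in R 4.3.3 (eBayes with trend, two-sided, Benjamini-Hochberg over all kept genes). Kept genes had a mean of at least 10 TPM and were above 0 in at least 10% of cells. The average over types used 4 animals with 2 residual degrees of freedom. Goblet and Paneth comparisons used 24 and 28 profiles with animal as a term, and single types used animal as a block (correlation 0.0552). Nothing in the labels pairs the M numbers across genotypes. The M1 deviations of WT and KO had a correlation of -0.133 over genes, which cannot settle whether the animals were paired. Upper limits beside counts of 0 describe counting error alone. Such a limit is 3 cells of the total. For the average over types, p-values measure the spread between these animals. For the Goblet and Paneth comparisons they measure the scatter between profiles that is left once animal is taken out. For single types they rest on a scatter shared by all tested types.

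The fits were tested on simulated data, with cells drawn with replacement and known changes put in. Cells standing for Goblet and the absorptive types came from a shared pool of Enterocyte.prog.early cells of all animals, without spread between animals. Each cell was rescaled to the same total after the changes, and the part of this rescaling in any false calls was not tested. Some types gave more false calls than the threshold states, so a fit weighted by cell number was added. The part of cell number in the false calls was not tested apart. Weighting lowered the false calls for Goblet and Enterocyte cells but not for Stem, a type of 96 cells. The fit without weights stays the one reported, as it was fixed earlier. Genes, lists and naming were chosen with earlier results of these data known. Genes of the set that passed, and all sensors, could be named for types. For genotypes, the named genes were those that passed, otherwise those with the smallest p in each direction, with Hspa5, Xbp1, Ddit3 and Ern2 in any case. Alternatives changed the pseudocount, filter, scaling, reference types, runs, animals and weights. The weights, the centring on the median gene and the crossed pairing were chosen after seeing the data.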

Additional observations from a re-analysis of the deposited data

Results flagged for a closer look

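Among 54 sets of 4 values, each holding both runs of both animals of 1 genotype, 2 had a value far from the others on the log2(mean TPM + 1) scale averaged over 6 types, where chance gives about 1 in 20. Hsp90b1, an ER form of HSP90, stood at 8.396 on that scale in run 1 of WT M1 and at 8.522 to 8.545 in the other 3 WT values, a gap of 0.845 of the whole range. Manf stood at 5.748 in run 2 of KO M1 and at 6.017 to 6.058 in the other 3 KO values, a gap of 0.869 of the range. On mean TPM the gaps were 0.669 and 0.794 of the range, below the limit for 4 values, so neither would be singled out on that scale.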

How the results depend on the processing

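Across the alternatives run, the count of called genes in the set stayed within 1.5 times for Goblet against absorptive types (all 18) and at 0 for the KO average (all 17) and for the comparison of that difference between genotypes (all 18). For KO in single types, 1 gene was called in 1 type in run 1 alone and 0 to 1 when 1 animal was left out. Centring on the median gene left 7 calls for Paneth against absorptive types and 14 for Paneth against Goblet. Leaving out WT M2 or KO M1 lowered the calls over all genes for Paneth against Goblet to 2555 and 3217 from 5613. Weighting profiles by cell number left all member counts within 1.5 times and took the KO calls over all genes in Enterocyte from 42 to 3. Over all genes, calls for the KO average went from 0 to at most 44 (crossed pairing; 19 without KO M2, 5 in run 2). Those in single types, 46, went to between 7 (weighted) and 4.74 times the 46 (no filter), and to between 14 and 3.93 times the 46 leaving out 1 animal. For the genotype comparison of the Goblet difference they went from 0 to at most 29 (no filter; 23 in run 2, 28 against Enterocyte alone). Centring gave 2249 for Paneth against absorptive types in place of 6038, and 9225 were called with no filter. It gave 1128 for Paneth against Goblet.

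The replicate block, with M numbers as a term, gave 0 calls in the set and 2 over all genes for the KO average, and 0 calls in the set for single types. Crossed pairing gave 0 and 44. Without the block, Goblet against absorptive types gave 21 calls, Paneth against absorptive types 26, Paneth against Goblet 27, and the genotype comparison of the Goblet difference 0.

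Directions that turned, among the genes followed through every alternative, were as below, and the cause was not tested. For Goblet against absorptive types, P4hb was -0.52 against Enterocyte alone. Ern1 was 0.18 rescaled, 0.032 in run 1, 0.19 in run 2, 0.035 without Paneth-rich cells, 0.46 with Stem and TA in the reference, 0.15 centred, 0.00064 weighted, and -0.12 to 0.066 leaving out 1 animal. Ddit3 was 0.66 from log2 values of cells, 0.14 rescaled, 1.23 in run 2, 0.10 without the run 1 cells of KO M2, 0.17 with Stem and TA, 0.054 centred, and -0.53 to 0.29 leaving out 1 animal. Derl2 was -0.23 in run 2 and -0.18 to 0.35 leaving out 1 animal. For Paneth against absorptive types, centring turned 19 of the 27 genes from below to above 0. Among the genes named here it gave Sdf2l1 0.95, Ern1 0.68, Eif2ak3 1.24, Atf6 0.86, Xbp1 0.46, Atf4 0.095, Pdia6 0.82, P4hb 0.41, Herpud1 1.41, Edem1 1.504, Sel1l 0.17 and Asns 1.41. Rescaling gave Herpud1 0.15 and Asns 0.18, log2 values of cells gave Asns 0.81, and Edem1 was -1.70 to 0.11 leaving out 1 animal. For Paneth against Goblet, centring turned 5 of the 27, among them Sel1l at 0.27. For the genotype comparison of the Goblet difference, run 2 turned 13 of the 27 genes, among them Ern2 at 0.22, and run 1 turned 1. Hspa5 was 0.044 without the run 1 cells of KO M2, 0.0066 with Stem and TA, and -0.35 to 0.18 leaving out 1 animal. For the KO average, run 2 turned 10 of the 27 genes, among them Dnajb9 at -0.034, Ern2 at -0.15 and P4hb at -0.069. Run 1 turned 5 of the 27, among them Hspa5 at 0.067, and Ern2 was -0.18 to 0.70 leaving out 1 animal. In single types, run 1 turned 2 (TA) to 10 (Enterocyte) of the 27 genes, and run 2 turned 8 to 11. In Stem, run 1 gave Hspa5 0.014 and Hyou1 0.12. In Goblet KO, log2 values of cells gave Ern2 -0.0032 and Xbp1 -0.032, and leaving out 1 animal gave Ern2 -0.090 to 0.35, Hspa5 -0.54 to 0.064 and Xbp1 -0.032 to 0.28.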
